A study of Mus musculus with 9 samples.

Results

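Of the 55471 genes counted in mouse dendritic cells (DCs), 10 are described: *Bst2*, *Rsad2*, *Cmpk2*, *Samhd1*, *Adar*, *Apobec3*, *Ifitm1*, *Ifitm2*, *Ifitm3* and *Ifitm6*. They were chosen by name as genes of proteins that restrict viruses, including the interferon-induced transmembrane (IFITM) family. Earlier results of these data were known at that point, so the comparisons with all tested genes are a description. All 10 passed the filter on low counts that left 16260 genes for testing. RNA was sequenced from wild-type (WT) C57BL/6 bone marrow cells grown into DCs with GM-CSF. The cells were left unstimulated, or treated with LPS, a component of the bacterial outer membrane, or with IFN-β, a type I interferon, for 6 h. Each of the 3 groups had 3 libraries with the letters A, B and C. All 9 libraries shared genotype, culture method and the removal of ribosomal RNA.

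The labels do not say that the libraries of a group came from separate animals or cultures, so the p-values measure the spread between these libraries. Between 33425803 and 43735199 counts per library fell on genes. Of the markers of conventional DCs that were fixed for this check, all 8 were above 3 counts in at least 1 library of each group, *Xcr1* being at 0 in an unstimulated library, and their summed level was 4342.9 to 5188 CPM (a gene's counts scaled to the size of its library) in unstimulated DCs, 6087.7 to 6731.9 CPM with LPS and 4855.1 to 5139.3 CPM with IFN-β. The cultures also held macrophage and monocyte transcripts, at 1886.4 to 2317.3, 2617 to 3246.8 and 2546.4 to 2907.8 CPM over 8 markers. The 6 plasmacytoid DC markers summed to 41.3 to 50, 212 to 257.9 and 78.1 to 100.5 CPM, mostly from *Tcf4*, while the defining markers *Siglech*, *Klk1* and *Ly6d* were at or under 3 counts in every library. The part of these shifts in the results was not tested. In bulk RNA, more cells of a type and more RNA per cell cannot be told apart.

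Restriction factors act inside or on the surface of a cell, each against a step of the viral life cycle. Type I interferon signals through its receptor and the kinases Jak1 and Tyk2 to transcription factors that bind the interferon-stimulated response element (ISRE). LPS acts through a Toll-like receptor that activates NF-κB and Irf3 and makes myeloid cells produce IFN-β themselves.

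Both stimuli raised most of the 10 genes, *Rsad2* and *Cmpk2* by far the most, and 5 of them stood lower with IFN-β than with LPS. Under LPS 9 of the 10 rose and 0 fell by edgeR, the exception being *Ifitm6*, against 32.8% of all 16260 tested genes that rose and 35.4% that fell. Under IFN-β 8 rose and 0 fell, the exceptions being *Ifitm1* and *Ifitm2*, against 23.6% and 23.3% of all tested genes. The 8 include *Ifitm6*, which had few counts, and the number was 7 when certain single libraries were left out. The median log2 fold change of the 10 was 1.92 with LPS and 1.66 with IFN-β, and that of all tested genes was -0.04 and -0.02. Both comparisons share the 3 unstimulated libraries. Set directly against LPS, IFN-β gave 5 of the 10 a lower level (*Rsad2*, *Cmpk2*, *Adar*, *Ifitm1* and *Ifitm2*) and 0 a higher one, where 23.3% of all tested genes were lower and 25.8% higher. DESeq2 also gave 0 in each of these places, and an unadjusted p under 0.05 gave 0, 0 and 1, the last being *Ifitm6*. Of all counts in a library, the 10 genes together took 0.116 to 0.176% without stimulation, 1.62 to 1.93% after LPS and 0.751 to 0.91% after IFN-β.

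**Figure D1:**
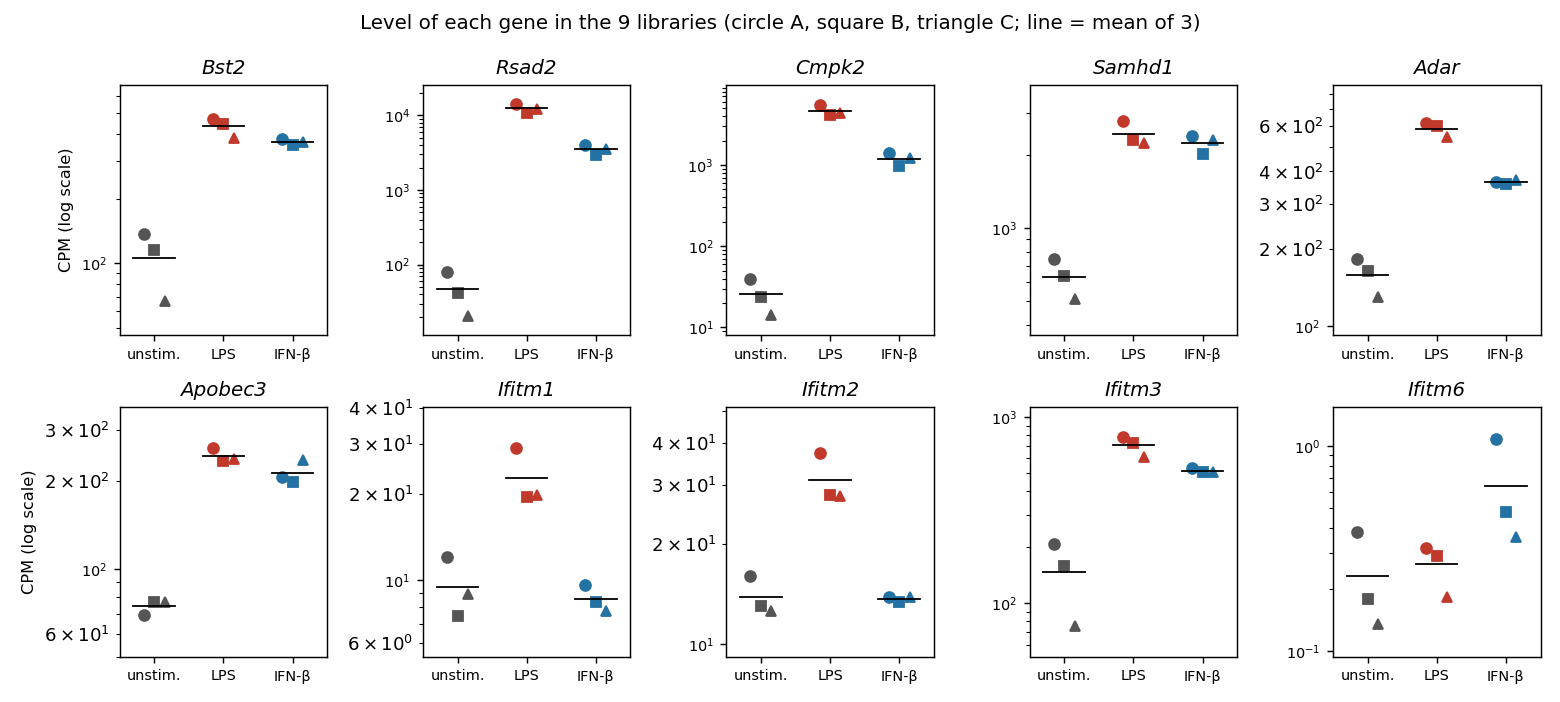
Level of each of the 10 genes (CPM on a log axis with its own range in each panel) in unstimulated, LPS-activated and IFN-β-treated DCs; points are single libraries and the line is the mean of 3. *Rsad2* and *Cmpk2* move furthest, and *Ifitm1* and *Ifitm2* are raised in the LPS libraries while their IFN-β libraries lie among the unstimulated ones or beside them.

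Promoter windows of 300 bases, from 250 before to 50 after the RefSeq start sites (GRCm38.p6), were searched because the 10 genes differed in their response to IFN-β. There were 13 windows for the 10 genes, as *Adar* and *Apobec3* have more than 1 each. Shares of all windows and numbers of genes with a match are therefore not in the same unit. The ISRE core, searched as GAAANNGAAA on both strands, was found in 3.44% of all 32841 promoter windows and in at least 1 window of 5 of the 10 genes: *Apobec3*, *Bst2*, *Ifitm2*, *Ifitm3* and *Rsad2*. A shorter core, GAAANNGAA, which every ISRE core contains and which was added after the sequences were seen, was in 8.56% of all windows and added *Adar*, with 2 matches in 1 of its windows. The stretches around these matches are shown because they set the IFITM genes beside the genes that rose with IFN-β. For *Adar* only the match after the start site is shown, and its other match, before the start, is not. Each is written 5′ to 3′ on the strand of its gene, with the match in capitals, which for *Rsad2* and *Apobec3* lies on the other strand.

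*Ifitm3*, chr7:141010723-141010752, minus strand: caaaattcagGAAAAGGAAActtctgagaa
*Ifitm3*, chr7:141010706-141010735, minus strand: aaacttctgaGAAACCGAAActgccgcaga
*Ifitm2*, chr7:140955983-140956022, minus strand: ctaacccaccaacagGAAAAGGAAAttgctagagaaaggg
*Bst2*, chr8:71537578-71537617, minus strand: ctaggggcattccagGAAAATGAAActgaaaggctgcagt
*Rsad2*, chr12:26456548-26456587, minus strand: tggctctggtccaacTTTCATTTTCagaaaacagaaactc
*Apobec3*, chr15:79892253-79892292, plus strand: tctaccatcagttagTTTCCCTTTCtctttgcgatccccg
*Adar*, chr3:89730741-89730767, plus strand: tcaaggaaacGAAAGTGAActctgggg

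*Ifitm2* and *Ifitm3* carry the same 10 bases as a core, 46 to 37 bases before the start in *Ifitm2* and 3 to 12 bases after it in *Ifitm3*, counting the start site as base 1. *Ifitm3*, whose level rose with IFN-β, has a second core at bases 20 to 29. *Ifitm2*, which did not pass the test with IFN-β, has 1 core in its window, and *Ifitm1* has none. *Rsad2* and *Apobec3*, which rose with IFN-β, also have 1 core each. Whether the number of cores bears on the response was not tested. *Bst2* has 2 cores that overlap each other, at 130 to 121 and 124 to 115 bases before the start, of which the first is shown in capitals. No core was found in the windows of *Cmpk2*, *Samhd1*, *Ifitm1* and *Ifitm6*, of which *Cmpk2*, *Samhd1* and *Ifitm6* rose with IFN-β. The RefSeq start sites of *Ifitm1* (chr7:140968076) and *Ifitm6* (chr7:141016892) lie inside these genes as annotated. Their outermost annotated 5′ ends, at chr7:140967221 and chr7:141017924, are outside the windows, so the sequence around those ends was not searched. The rise of *Ifitm6* was seen at few counts and did not pass the test when certain single libraries were left out. A match is a description of letters and not of a bound site, and its absence says only that these letters are not in the window.

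The interferon-gamma-activated sequence (GAS) TTCNNNGAA, the same on both strands, was in 8.3% of all windows and in windows of *Adar*, *Bst2*, *Ifitm3*, *Ifitm6* and *Samhd1*. In *Ifitm3* it overlaps the second ISRE core. In *Bst2* it overlaps the first core and a κB motif, which was found in 4.51% of all windows and, among the 10 genes, in *Bst2* alone.

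**Figure D2:**
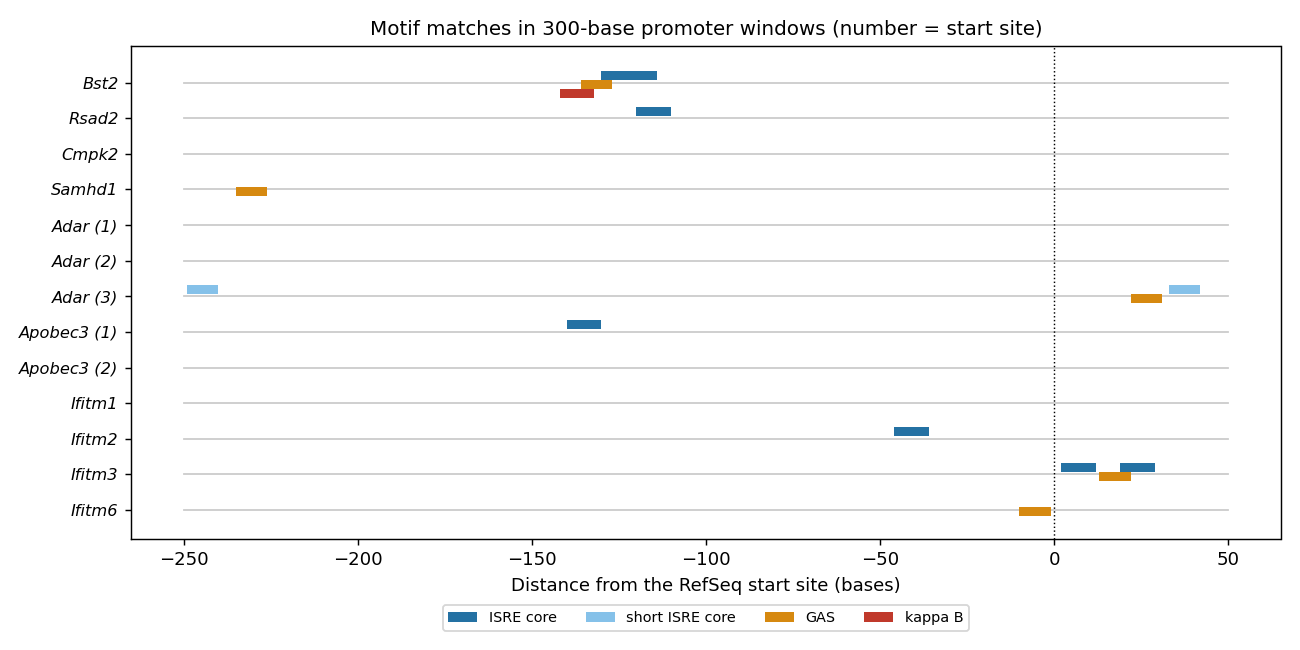
Position of motif matches in the 13 promoter windows of the 10 genes, in bases from the RefSeq start site (dotted line); numbers in brackets tell the start sites of a gene apart, and a short core is drawn as its own bar where no full core covers it. ISRE cores lie in windows of 5 genes, with 2 of them after the start in *Ifitm3*.

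*Rsad2* encodes viperin, a radical SAM enzyme that turns CTP into a chain-terminating nucleotide. *Cmpk2* encodes a mitochondrial nucleotide kinase that makes CDP and UDP, upstream of CTP. The genes are neighbours on chromosome 12 and point away from each other (GRCm38, *Rsad2* at chr12:26442746-26456452 on the minus strand and *Cmpk2* at chr12:26469204-26479837 on the plus strand), with 12752 bases between their 5′ ends.

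*Rsad2* stood at 79.4, 41.4 and 20.4 CPM in the unstimulated libraries A, B and C. It reached 14198.5, 10834.6 and 12362 CPM with LPS and 4007, 2923.5 and 3580 CPM with IFN-β. The 3 groups did not overlap, and every LPS library was above every IFN-β library. The log2 fold change was 8.05 ± 0.5 (SE, n = 3 and 3; 265-fold; edgeR's quasi-likelihood test, Benjamini-Hochberg adjusted p = 1.5e-07) for LPS and 6.22 ± 0.46 (74.5-fold, adjusted p = 3.9e-06) for IFN-β. Without unstimulated library A, the library with the most *Rsad2*, the log2 fold changes were 8.65 and 6.82.

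*Cmpk2* gave the same order of groups. It was at 39.5, 24 and 14.1 CPM in unstimulated DCs, at 5532, 4096.5 and 4414.2 CPM with LPS, and at 1416.7, 969.4 and 1208.4 CPM with IFN-β. It rose by 7.5 ± 0.39 on the log2 scale with LPS (181-fold, adjusted p = 5.1e-08) and by 5.54 ± 0.36 with IFN-β (46.4-fold, adjusted p = 1.9e-06). The IFN-β level was below the LPS level by 3.56-fold for *Rsad2* (log2 difference -1.83 ± 0.38, adjusted p = 0.0022) and by 3.91-fold for *Cmpk2* (-1.97 ± 0.3, adjusted p = 0.00035).

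The number of *Rsad2* counts per *Cmpk2* count compares the neighbours within a library. It was 2.01, 1.72 and 1.45 in unstimulated DCs, 2.57, 2.64 and 2.8 with LPS, and 2.83, 3.02 and 2.96 with IFN-β. All LPS and IFN-β libraries were above the unstimulated ones, and the IFN-β libraries were above the LPS ones, by a log2 difference of 0.14. The exact permutation test (two-sided) gave p = 0.1 for each of the 3 comparisons, the smallest value 3 libraries against 3 allow.

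*Bst2* encodes tetherin, a membrane protein that holds budding virions on the cell surface, and it is also a surface marker of plasmacytoid DCs. It lies on chromosome 8 (chr8:71534255-71537456, minus strand). Its level was 136.4, 115.6 and 66.5 CPM in unstimulated DCs, 472.7, 446.7 and 383.6 CPM with LPS and 378.4, 355.3 and 368.6 CPM with IFN-β. Every stimulated library was above every unstimulated one. *Bst2* rose by 2.03 ± 0.21 on the log2 scale with LPS (4.09-fold, adjusted p = 8.2e-06) and by 1.79 ± 0.21 with IFN-β (3.46-fold, adjusted p = 7e-05). The difference between the stimuli was -0.24 (95% interval -0.69 to 0.21, adjusted p = 0.35), so an IFN-β level up to 0.69 lower on the log2 scale lay within the interval. With the compared groups alone it was -0.22 (edgeR, adjusted p = 0.063).

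*Samhd1* encodes an enzyme that breaks down deoxynucleotides and so limits reverse transcription; it lies at chr2:157097533-157135265 on the minus strand. Its level was 750.3, 633.7 and 512.3 CPM in the unstimulated libraries. LPS libraries held 2766.6, 2325.4 and 2249.3 CPM and IFN-β libraries 2397.9, 2033.8 and 2324.2 CPM. The LPS and IFN-β libraries overlapped, and both groups were above all unstimulated libraries. The rise was 1.95 ± 0.15 (adjusted p = 7.1e-07) with LPS and 1.83 ± 0.15 (adjusted p = 6.4e-06) with IFN-β on the log2 scale, and the difference between them was -0.12 (95% interval -0.44 to 0.2, adjusted p = 0.52).

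*Adar* encodes an enzyme that converts adenosine to inosine in double-stranded RNA, and the gene lies at chr3:89715022-89753446 on the plus strand. Its level was 182.1, 164.2 and 129.6 CPM in unstimulated DCs, 618.4, 602.8 and 542.8 CPM with LPS, and 364.2, 356.8 and 371.5 CPM with IFN-β. No groups overlapped. *Adar* rose by 1.89 ± 0.12 with LPS (3.71-fold, adjusted p = 1.5e-07) and by 1.2 ± 0.11 with IFN-β (2.3-fold, adjusted p = 1.7e-05), and the IFN-β level was lower than the LPS level by 1.61-fold (log2 difference -0.69 ± 0.11, adjusted p = 0.00048). Counts are per gene, so the long interferon-inducible isoform and the constitutive one were not separated. *Chrnb2* on the opposite strand shares 16.8% of the exon bases of *Adar* and stood at 1.29 to 1.95 CPM over the 9 libraries.

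Of this pair *Adar* alone passed the test of IFN-β against LPS, and their ratio within a library sets *Samhd1* and *Adar* side by side. A library held 4.12, 3.86 and 3.95 *Samhd1* counts per *Adar* count in unstimulated DCs and 4.47, 3.86 and 4.14 with LPS. With IFN-β the ratio was 6.58, 5.7 and 6.26, above all other libraries. The exact permutation test (two-sided) gave p = 0.1 for IFN-β against either other group and p = 0.5 for LPS against unstimulated.

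*Apobec3* encodes a cytidine deaminase that mutates retroviral DNA, and the gene lies at chr15:79891659-79915906 on the plus strand. Its level was 69.3, 77 and 76.9 CPM in unstimulated DCs, 258.9, 234.9 and 238 CPM with LPS, and 206.5, 198 and 236.4 CPM with IFN-β. Unstimulated libraries lay closer together than for any of the other 9 genes, with the highest 1.11 times the lowest. *Apobec3* rose by 1.71 ± 0.08 with LPS (3.28-fold, adjusted p = 3.6e-08) and by 1.52 ± 0.08 with IFN-β (2.87-fold, adjusted p = 9.7e-07). The difference between the stimuli was -0.19 (95% interval -0.37 to -0.01) with an adjusted p of 0.076, and with the replicate letter as a block the adjusted p was 0.032. An RNA annotated on the same strand, *D730005E14Rik*, shares 7.15% of its exon bases and stood at 1.03 to 3.44 CPM.

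**Figure D3:**
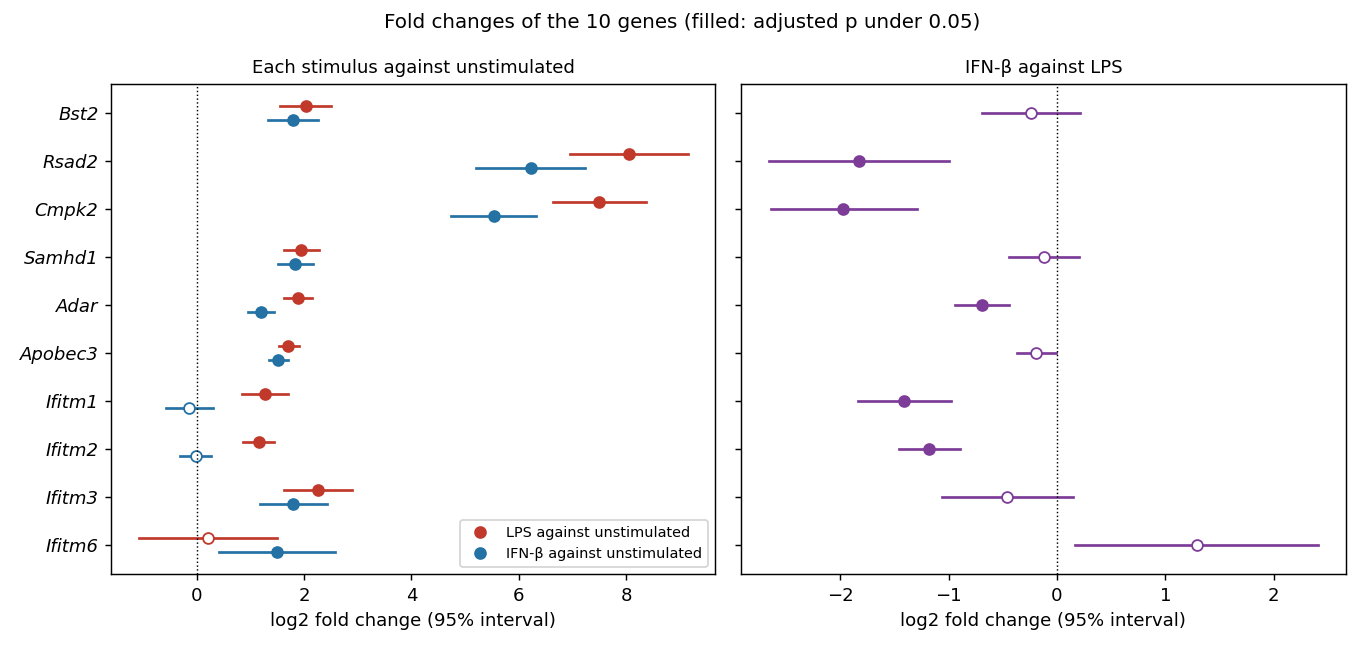
Log2 fold changes of the 10 genes with 95% intervals from edgeR, for LPS and IFN-β against unstimulated DCs (left) and for IFN-β against LPS (right); filled points passed an adjusted p of 0.05. *Rsad2* and *Cmpk2* stand apart on the left, *Ifitm1* and *Ifitm2* have open IFN-β points near 0, and *Ifitm6* has the widest intervals.

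IFITM proteins are small membrane proteins that hinder the fusion of enveloped viruses with cellular membranes. The 4 genes measured here lie within 63088 bases on chromosome 7: *Ifitm2* at chr7:140954837-140955987 (minus strand), *Ifitm1* at chr7:140967221-140969825 (plus), *Ifitm3* at chr7:141009586-141010770 (minus) and *Ifitm6* at chr7:141015699-141017924 (minus). Their transcripts were 67.6 to 76.4% identical, the closest pair being *Ifitm2* and *Ifitm3*. No stretch of 100 bases was the same in any pair of the 4. *Gm45717*, annotated on the same strand, shares 40.9% of the exon bases of *Ifitm2* and had 0 counts in all 9 libraries. The paper names STAR's gene counts for this step, and reads in the shared stretch may be missing from the *Ifitm2* counts, which was not tested. The absolute level of *Ifitm2* and the ratios that use it carry this limit in every group.

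*Ifitm3* was the most abundant of the 4 per kilobase of exon and rose with both stimuli. Its level was 208.8, 158.7 and 75.4 CPM in unstimulated DCs, 779.1, 727.8 and 611.2 CPM with LPS, and 530.6, 506.8 and 505.5 CPM with IFN-β. The groups did not overlap. The log2 fold change was 2.26 ± 0.29 (4.78-fold, adjusted p = 3.8e-05) with LPS and 1.8 ± 0.28 (3.48-fold, adjusted p = 0.00046) with IFN-β. Every IFN-β library was below every LPS library, but the log2 difference of -0.46 (95% interval -1.06 to 0.15) had an adjusted p of 0.19. That interval uses a spread estimated over all 9 libraries, and the unstimulated ones varied most. With the compared groups alone the difference was -0.43 (edgeR, adjusted p = 0.00451).

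*Ifitm1* and *Ifitm2* rose with LPS and did not pass the test with IFN-β. *Ifitm1* was at 12, 7.46 and 8.89 CPM in unstimulated DCs, 29.1, 19.5 and 19.8 CPM with LPS, and 9.56, 8.36 and 7.76 CPM with IFN-β. *Ifitm2* was at 16, 13 and 12.6 CPM, then 37.4, 28 and 27.7 CPM with LPS and 13.9, 13.4 and 13.9 CPM with IFN-β. For both genes all LPS libraries were above all others, while the unstimulated and IFN-β libraries overlapped.

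With LPS, *Ifitm1* rose by 1.27 ± 0.19 (2.41-fold, adjusted p = 0.00015) and *Ifitm2* by 1.16 ± 0.13 (2.23-fold, adjusted p = 1.4e-05). With IFN-β the log2 fold change of *Ifitm1* was -0.14 (95% interval -0.57 to 0.3, adjusted p = 0.6) and that of *Ifitm2* was -0.02 (-0.3 to 0.27, adjusted p = 0.94). The intervals end at 0.3 and 0.27, below the rise of either gene with LPS. The IFN-β levels were lower than the LPS levels, by 1.41 ± 0.2 for *Ifitm1* (adjusted p = 0.00016) and 1.18 ± 0.13 for *Ifitm2* (adjusted p = 3.1e-05). The scaling of the libraries bears on the IFN-β result: with library size alone, which put the median of all tested genes at -0.32, *Ifitm1* was at -0.44 (adjusted p = 0.0466) and *Ifitm2* at -0.32 (adjusted p = 0.0264), both passing the threshold as lower. With the same scaling the LPS values were 0.69 and 0.58, still past the threshold, beside a median of all tested genes of -0.62.

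Ratios within a library do not depend on the scaling. There were 13, 12.2 and 6 *Ifitm3* counts per *Ifitm2* count in unstimulated DCs, 20.9, 26 and 22.1 with LPS, and 38.3, 37.9 and 36.4 with IFN-β. The 3 groups stood in this order without overlap, with a log2 difference of 1.93 between IFN-β and unstimulated and of 0.71 between IFN-β and LPS. The ratio of *Ifitm3* to *Ifitm1* had the same order of groups, from 8.48 to 21.3 in unstimulated DCs, 26.8 to 37.4 with LPS and 55.5 to 65.1 with IFN-β. Each of these comparisons gave the smallest exact permutation p that the design allows, p = 0.1 (two-sided). *Ifitm1* counts per *Ifitm2* count ranged from 0.573 to 0.747 in unstimulated DCs, 0.696 to 0.778 with LPS and 0.559 to 0.689 with IFN-β, with p = 0.5 (exact, two-sided) for either stimulus against unstimulated. For that ratio all IFN-β libraries were below all LPS libraries (log2 difference -0.23, exact two-sided p = 0.1).

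**Figure D4:**
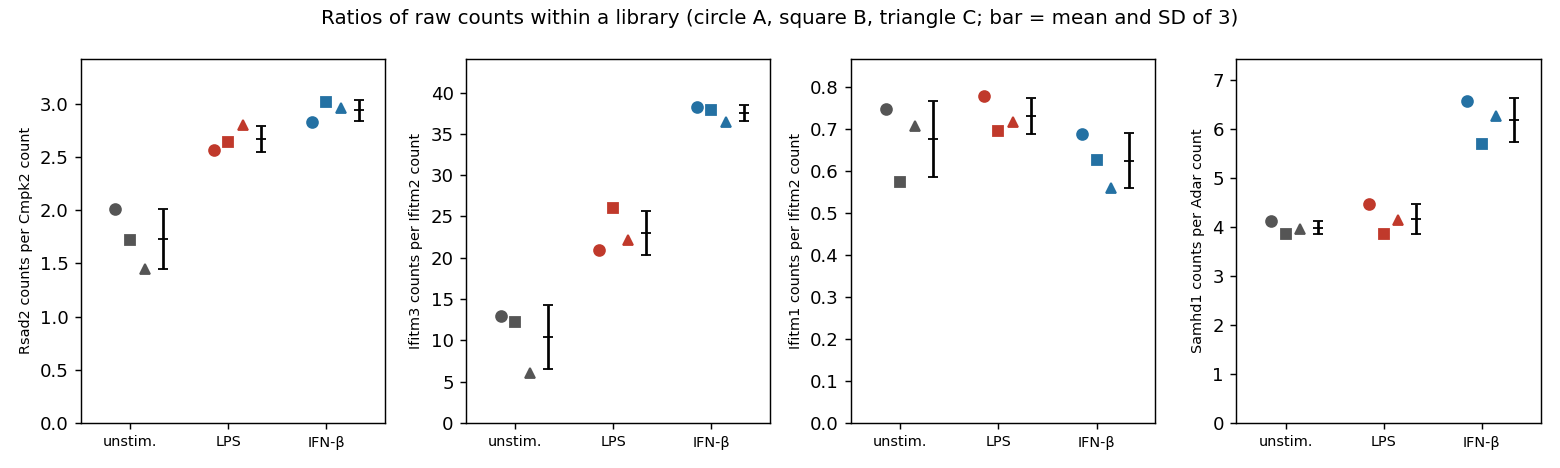
Ratio of raw counts of gene pairs within each library, with the mean and SD of 3 libraries beside the points. *Rsad2* per *Cmpk2* and *Ifitm3* per *Ifitm2* rise from unstimulated to LPS to IFN-β without overlap, *Samhd1* per *Adar* is raised in the IFN-β libraries, and *Ifitm1* per *Ifitm2* overlaps between the unstimulated libraries and each stimulus.

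*Ifitm6*, the least abundant of the 10 per kilobase of exon, had 15, 8 and 6 counts in the unstimulated libraries, 9, 10 and 6 with LPS, and 46, 18 and 13 with IFN-β. That is 0.38, 0.18 and 0.135 CPM, 0.318, 0.291 and 0.184 CPM, and 1.08, 0.478 and 0.359 CPM, where 3 counts correspond to 0.0674 to 0.106 CPM. The lowest IFN-β library was below the highest unstimulated library, so these groups overlapped. The log2 fold change was 1.5 ± 0.49 with IFN-β (adjusted p = 0.028) and 0.21 with LPS (95% interval -1.08 to 1.49, adjusted p = 0.77). The IFN-β result rests on single libraries: without unstimulated B, unstimulated C or IFN-β A it was 1.34, 1.22 and 0.86, with adjusted p = 0.0932, 0.0935 and 0.165. Against LPS the log2 difference was 1.29 (95% interval 0.17 to 2.41, adjusted p = 0.056), all IFN-β libraries being above all LPS ones, and with the letters as a block it was 1.2 with an adjusted p of 0.0062. Without IFN-β library A this difference was 0.66 (adjusted p = 0.284).

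The other members of these gene families were mostly too low to test. Of 10 paralogs, 4 were tested. *Ifitm10* rose with LPS (from 0.684 to 0.722 CPM to 3.54 to 5.13 CPM, log2 fold change 2.59 ± 0.19, adjusted p = 6.4e-07) and was at 0.703 to 0.903 CPM with IFN-β (0.14, adjusted p = 0.62). *Cmpk1*, the cytosolic counterpart of *Cmpk2*, rose by 0.67 with LPS and 0.61 with IFN-β, and *Apobec1*, an RNA-editing deaminase, by 0.97 and 1.21. *Adarb1*, a relative of *Adar*, fell by 0.71 with LPS and had a log2 fold change of -0.45 with IFN-β (adjusted p = 0.19). *Ifitm5*, *Ifitm7*, *Adarb2*, *Apobec2* and *Apobec4* did not pass the filter, and their highest count in any library was 29, for *Ifitm5* with LPS.

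Compared per kilobase of exon, the order of the genes changed with the stimulus. The exon bases are those of all annotated transcripts of a gene, 9454 for *Apobec3* with 20 transcripts and 678 for *Ifitm3* with 1. The order depends on that choice, as the counts do not show which isoforms were present. In unstimulated DCs *Ifitm3* (217.7 ± 99.4 CPM per kb, SD, n = 3), *Bst2* (117.6 ± 39.7) and *Samhd1* (69.1 ± 13.0) led, each overlapping its neighbour in the order. Below a gap came *Ifitm2*, *Adar*, *Rsad2*, *Ifitm1*, *Apobec3* and *Cmpk2*, from 21.2 down to 6.21 CPM per kb, again with neighbours that overlapped. *Ifitm6* was last in all 3 groups, at 0.256 to 0.706 CPM per kb.

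In LPS-activated DCs *Rsad2* was first, at 2875.4 ± 388.5 CPM per kb, ahead of *Cmpk2* (1124.4 ± 181.1) and *Ifitm3* (1041.3 ± 126.9), whose libraries overlapped. In IFN-β-treated DCs *Rsad2* (808.2 ± 125.9) and *Ifitm3* (758.6 ± 20.8) overlapped at the top, followed by *Bst2* (406.9 ± 12.8). *Cmpk2* came next there, at 287.8 ± 53.8 CPM per kb and overlapped *Samhd1*, whose libraries ranged from 222.3 to 262.1.

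The unstimulated libraries were not alike for these genes. The highest was 3.89 times the lowest for *Rsad2*, 2.81 times for *Cmpk2*, 2.77 times for *Ifitm3* and 2.05 times for *Bst2*, whereas these 4 genes varied by at most 1.35 times in LPS-activated and 1.46 times in IFN-β-treated DCs. *Ifitm6*, at 6 to 15 counts, also varied by 2.81 times in unstimulated DCs. Library A was highest and library C lowest for 8 of the 10 genes in unstimulated DCs, for 6 with LPS and for 3 with IFN-β, against 25.6%, 20.4% and 20.2% of all tested genes. *Irf7*, a transcription factor induced by interferon, moved with them, at 228.2, 161.3 and 33.3 CPM in the unstimulated libraries A, B and C. The cause of this spread was not tested.

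**Figure D5:**
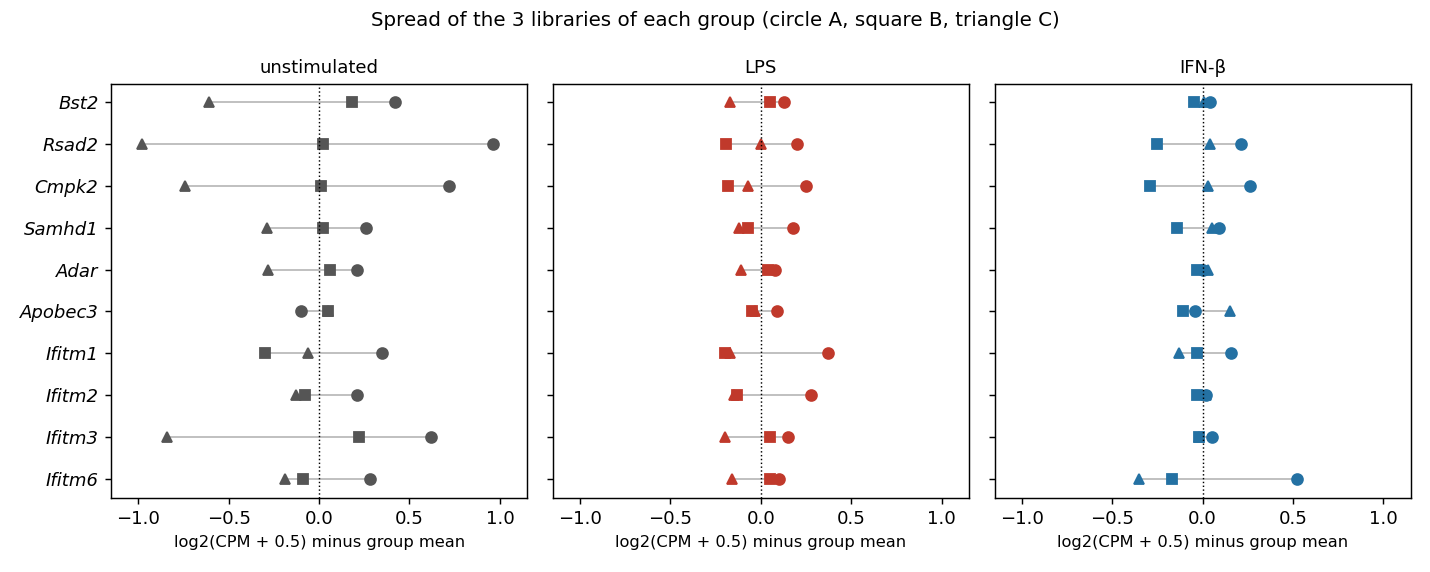
Deviation of each library from its group mean on the log2(CPM + 0.5) scale for the 10 genes. *Rsad2*, *Cmpk2*, *Ifitm3* and *Bst2* spread widest in unstimulated DCs, with library A high and library C low, and lie closer together after either stimulus.

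Of a list of 24 other restriction factors, 23 were tested. With LPS 20 rose and 2 fell (median log2 fold change 1.85), against 32.8% and 35.4% of all tested genes. With IFN-β 21 rose and the other 2 did not pass the test (1.67), where 23.6% of all tested genes rose. Relative to LPS, 12 of the 23 were lower and 3 higher with IFN-β, against 23.3% and 25.8%. The largest rises with LPS were those of *Ch25h*, which makes an oxysterol that hinders membrane fusion (6.92 with LPS and 3.05 with IFN-β, a difference of -3.87, adjusted p = 1.4e-06), *Isg20*, an exonuclease (6.07 and 5.41), and *Mx2*, a dynamin-like GTPase (4.92 and 3.88). *Marchf8*, a ubiquitin ligase, fell with LPS (-0.17, adjusted p = 0.025). *Cnp* (0.71) and *Marchf8* (0.19) were among those higher with IFN-β than with LPS.

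*Samhd1* and *Cmpk2* act on nucleotide pools, so 12 enzymes of deoxynucleotide supply were set beside them. With LPS 8 of the 12 fell and 3 rose, against 35.4% and 32.8% of all tested genes. With IFN-β 7 fell and 2 rose, against 23.3% and 23.6%. The largest falls with LPS were in *Dctd*, dCMP deaminase (-3.07), *Tk1*, thymidine kinase (-3.01), and *Rrm2*, a ribonucleotide reductase subunit (-2.37). With IFN-β these 3 fell by 1.84, 0.98 and 0.95. Deoxycytidine kinase *Dck* rose with both (1.22 and 1.64). Relative to LPS, 7 of the 12 were higher with IFN-β and 1 was lower, against 25.8% and 23.3% of all tested genes. Of the 10 restriction genes, 0 were higher and 5 lower.

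*Adar* works on double-stranded RNA. Of 6 genes that sense or answer it, 5 rose with each stimulus, against 32.8% of all tested genes with LPS and 23.6% with IFN-β. *Ifih1*, which encodes the sensor MDA5, rose most (4.32 with LPS and 2.93 with IFN-β). *Mavs*, the adaptor of these sensors, fell with both (-1.3, adjusted p = 1.7e-07, and -0.34, adjusted p = 0.0047). Of 12 genes of type I interferon signalling, 11 rose with LPS and 11 with IFN-β, where *Irf3* fell (-0.3, adjusted p = 0.0073). *Usp18*, which restrains the receptor, rose by 4.71 and 3.69, and *Irf7* by 3.34 and 3.12. *Ifnb1* itself had 0, 0 and 1 counts in unstimulated libraries, 137, 117 and 93 with LPS, and 9, 5 and 9 with IFN-β.

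The genes most like each of the 10 were found by Pearson correlation of log2(CPM + 0.5) over the 9 libraries, a description in which the 3 groups set most of the value. *Bst2* was closest to *Oas1a*, *BC147527* and *Oas3* (r = 0.9995 to 0.9983). *Rsad2* was closest to *Eif2ak2*, *Ifit1* and *Nt5c3* (0.9995 to 0.999). *Cmpk2* had *Crybg1*, *Zc3hav1* and *Rsad2* (each 0.9989), *Samhd1* had *Ifi203-ps*, *Ifit3b* and *Igtp* (0.9985 to 0.9981), and *Ifitm3* had *Rtp4*, *Ifi206* and *H2-T24* (0.9975 to 0.9955). *Adar* was nearest to *Dync1h1*, *Slfn2* and *Helz2* (0.9983 to 0.9979), and *Apobec3* to *Serpina3g*, *Phf11c* and *Trp53i11* (0.9969 to 0.9963).

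For *Ifitm1* the nearest genes were *Ythdf2*, *Cyb5r3* and *Gpr4* (0.9877 to 0.9845), and for *Ifitm2* they were *Clrn3*, *Plagl1* and *Il17ra* (0.992 to 0.9898). Among the 10, these genes were nearest to each other (0.983), whereas *Ifitm3* was nearest to *Bst2* (0.995). *Ifitm6* was closest to *Cln8*, *Sestd1* and *B4galnt2* (0.9585 to 0.938), and its nearest gene among the 10, *Samhd1*, reached 0.463.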

How the data were processed

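RNA was sequenced from 9 libraries, 3 per group. The authors trimmed adapters (Trim Galore 0.6.0, per the submitters' processing notes), mapped reads to GRCm38 with STAR (2.7.8a in those notes) and deposited raw counts per gene, without normalization; the strand setting of the counting is not given in the sources used here, so reads of overlapping genes on opposite strands cannot be told apart. The comparisons between groups follow the study's methods in using edgeR (here 4.0.16, with limma 3.58.1 and R 4.3.3), TMM factors and quasi-likelihood F-tests. The filter (filterByExpr) and 1 term per condition over all 9 libraries were chosen here, with Benjamini-Hochberg adjustment over all 16260 tested genes at 0.05. The third comparison, IFN-β against LPS, equals the study's interaction contrast. All 3 comparisons share 1 estimate of spread per gene, so the spread of the unstimulated libraries also enters the intervals of IFN-β against LPS. The SE is the absolute log2 fold change divided by the square root of F. CPM use TMM-scaled library sizes; the pseudocount of 0.5 CPM applies to single-library log2 values.

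The 10 genes and the other lists were chosen with earlier results of these data known. Named genes were all 10, all paralogs, up to 3 genes with the largest changes per list, comparison and direction, and the 3 most correlated genes for each; of the list genes and paralogs only some are printed, and a few are not reported here. Libraries held 33425803 to 43735199 counts, and 3 counts was taken as the floor; floors cover counting error only, as these reads carry no molecular identifiers and are not independent molecules. Every pair of libraries within a group differed by more than sampling noise. The letters A, B and C were tested for pairing: after group means were subtracted, all 9 same-letter pairs correlated across genes at 0.13 to 0.55, above 0.1, so values with the letter as a block are given where a call changes. Alternatives were DESeq2 1.42.0, scaling by library size alone, by upper quartiles, no filter, at least 10 counts in every library, the compared groups alone, the block, and leaving out each library. Gene positions are from GENCODE M21 and promoter sequences from RefSeq (GRCm38.p6); Biopython 1.88 and matplotlib 3.10.9 were used.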

Additional observations from a re-analysis of the deposited data

How the results depend on the processing

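The counts of the 10 genes that rose or fell were within 1.5 times of the values given in all alternatives, except for these. With library size only, which moved the median of all tested genes to -0.62 (LPS), -0.32 (IFN-β) and 0.29 (IFN-β against LPS), 2 genes were lower with IFN-β. That scaling put 21.9%, 22.3% and 77.9% of all called genes on the higher side in the 3 comparisons, where TMM gave 48.1%, 50.3% and 52.5%. The number higher with IFN-β than with LPS, 0 in the results above, was 1 with library size only, 1 with upper-quartile factors, 1 without a filter, 1 with the compared groups alone and 1 with the replicate block, and ranged from 0 to 1 when single libraries were left out; the gene was *Ifitm6* each time. Values that changed sign were below the threshold in the results above: with library size only *Ifitm6* with LPS was -0.36, and IFN-β against LPS was 0.04 for *Bst2*, 0.16 for *Samhd1* and 0.09 for *Apobec3*. Leaving out single libraries gave -0.07 to 0.72 for *Ifitm6* with LPS, -0.29 to 0.06 for *Ifitm1* with IFN-β and -0.08 to 0.1 for *Ifitm2* with IFN-β. IFN-β against LPS passed the threshold for *Apobec3* with DESeq2 (-0.22, adjusted p = 0.0379) and without IFN-β library C (-0.27, adjusted p = 0.0218). It did so for *Ifitm3* without a filter (-0.44, adjusted p = 0.0239), with the compared groups alone (-0.43, adjusted p = 0.00451) and without unstimulated library C (-0.45, adjusted p = 0.00825). The replicate block changed the calls of *Apobec3* (adjusted p = 0.032) and *Ifitm6* (adjusted p = 0.0062) against LPS and no other call of the 10. The cause of these changes was not tested. With at least 10 counts required in every library, and with LPS and unstimulated DCs fitted alone, *Ifitm6* was filtered out and has no value. Of the 10, depth limits mainly *Ifitm6*, whose libraries held 6 to 46 counts.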
